A study of Mus musculus with 24 samples.

Results

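The genes described here encode the machinery of DNA replication and of mitosis, and their transcripts were followed in splenic dendritic cells (DCs) of newborn mice. They were taken from a list of 44 cell cycle genes, and a probe set of the array counted as theirs when its only gene symbol was a listed one. By this rule 81 of 22626 tested probe sets belonged to 43 genes, with 42 probe sets for 20 S-phase genes and 39 for 23 mitotic genes. No probe set carried Ccnb1, a mitotic cyclin, as its only symbol. For 20 genes there was 1 probe set and for 23 genes there were several, and a gene is given by its brightest probe set unless stated otherwise.

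DCs take up antigen and present it to T cells. In the spleen they arise from dividing precursors and are short lived, so a DC preparation can hold cells in cycle. Before a cell divides, cyclin E and Cdk2 and the E2F factors switch on the S-phase genes, which load the MCM helicase on DNA, supply nucleotides and copy the strands. The mitotic genes follow in G2, when cyclins A and B with Cdk1 drive entry into mitosis, kinases of the Aurora and Polo families and kinesins build the spindle, and the checkpoint proteins hold back the anaphase-promoting complex until all chromosomes are attached. Transcripts of both sets fall away when a cell leaves the cycle, which is why they serve as markers of proliferating cells.

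The RNA came from CD11c+ cells retained on magnetic beads from spleens of BALB/c pups at day 14 of life. Normal pups had control mothers. The mothers of asthma-at-risk pups had been sensitized to ovalbumin (OVA) with alum, exposed to OVA aerosols and mated with normal males. Allergen-stimulated pups had been injected once with OVA (5 µg) in alum (1 mg), on day 3 by the sample labels and on day 4 by the study's methods, and naïve pups had not. The study's methods describe 2 sets of arrays, and since the sample labels name no set, arrays were placed in a set here by their number and the set sizes in the methods. In Set 1, DCs of normal pups gave 3 naïve and 4 stimulated arrays, and DCs of at-risk pups gave 4 of each. Set 2, whose RNA was amplified with a NuGEN kit by the study's methods, had stimulated DCs only, on 4 arrays from normal and 5 from at-risk pups. The methods call the arrays biological replicates, but the sources used here do not say how many pups stand behind 1 array. Since the arrays of both sets are numbered consecutively by group, array order and group cannot be told apart.

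Values are log2 of the deposited signal. Array medians ran from 272.1 to 298.3 on the linear scale, and the lower quartile of an array lay between 5.0 and 5.09 in log2 units. None of the 43 brightest member probe sets had a mean under that quartile, and 5 of the 81 probe sets did. Over the arrays Itgax (CD11c) lay at 12.63 to 13.1 and Cd74, the invariant chain of MHC class II, at 14.22 to 14.37. Markers of other cells were bright on every array too, such as S100a9 of neutrophils at 13.71 to 14.13 and Cd79b of B cells at 11.99 to 13.28. Not all such markers were bright, as Pax5 of B cells lay at 4.84 to 5.39. These values do not measure the purity of the cells. By the study's methods, flow cytometry found CD11c and MHC class II together on the great majority of purified cells. A probe set was called when its p from limma, adjusted over all probe sets by Benjamini-Hochberg, was at most 0.05 and its log2 change was at least 0.322 in size (the fold threshold). The array AF123, a stimulated at-risk array of Set 2, stood apart, as it had the highest signal of its group in 41 of 43 genes and of all 24 arrays in 37. The naïve normal array AF79 had the lowest signal of its 3 arrays in 23 of 43 genes. In some other genes it had the highest, such as Cdc6 (9.8 against 9.19 and 9.33) and Cdt1 (11.9 against 11.25 and 11.29). It can thus make a change after allergen look larger or smaller.

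The promoters are shown first. Those of cell cycle genes are known for 3 short elements, which are the cell cycle homology region (CHR, TTTGAA) bound by the DREAM and MuvB complexes, the CCAAT box bound by NF-Y, and E2F sites. RefSeq promoters of GRCm38.p6, from 250 bases before to 50 after each start, were found for 35 of the 43 measured genes and searched on both strands for these letters, with TTTCGCGC, TTTGGCGC and GGCGGGAA as E2F sites. The windows printed here run from 130 bases before the start to 20 bases from the start on, on the strand of the gene, with the matches in capitals. Ccnb2, Cdc20, Kif22 and Prc1 are among 14 mitotic genes called after allergen in both kinds of pups. They carry CHR and CCAAT letters within the printed bases, which not all of the 14 do. Bub1 has no CHR letters, and those of Aurka, Bub1b and Plk1 lie outside the printed bases. For Aurkb, Birc5, Ccna2 and Nusap1, also among the 14, no match of any element was found. Promoters were not found for all measured genes, so this can mean no letters or no promoter. Mcm6 and Rrm1 are shown as S-phase genes with E2F letters whose brightest probe sets were not called.
Ccnb2, chr9:70421535-70421684 (minus strand): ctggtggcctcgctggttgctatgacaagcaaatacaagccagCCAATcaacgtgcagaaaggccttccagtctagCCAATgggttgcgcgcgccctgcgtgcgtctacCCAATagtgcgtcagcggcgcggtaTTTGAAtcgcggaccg
Cdc20, chr4:118437324-118437473 (minus strand): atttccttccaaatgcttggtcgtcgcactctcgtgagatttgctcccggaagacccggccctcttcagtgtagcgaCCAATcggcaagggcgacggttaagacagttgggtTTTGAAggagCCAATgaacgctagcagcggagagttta
Kif22, chr7:127042401-127042550 (minus strand): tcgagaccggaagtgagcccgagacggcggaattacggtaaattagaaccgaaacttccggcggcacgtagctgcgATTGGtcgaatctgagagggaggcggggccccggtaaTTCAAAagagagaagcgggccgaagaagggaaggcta
Prc1, chr7:80294321-80294470 (plus strand): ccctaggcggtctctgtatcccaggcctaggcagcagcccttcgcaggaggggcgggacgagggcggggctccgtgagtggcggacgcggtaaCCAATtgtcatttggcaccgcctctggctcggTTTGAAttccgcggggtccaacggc
Mcm6, chr1:128359686-128359835 (minus strand): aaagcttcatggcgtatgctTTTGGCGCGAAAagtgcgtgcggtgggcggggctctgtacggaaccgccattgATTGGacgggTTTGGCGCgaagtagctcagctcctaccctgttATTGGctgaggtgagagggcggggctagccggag
Rrm1, chr7:102441565-102441714 (plus strand): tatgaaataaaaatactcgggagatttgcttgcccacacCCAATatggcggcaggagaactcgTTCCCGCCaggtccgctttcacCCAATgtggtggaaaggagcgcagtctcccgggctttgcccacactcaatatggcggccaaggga

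In Ccnb2, 3 CCAAT boxes lead up to a CHR just after the start, and in Cdc20 a CHR lies between a pair of CCAAT boxes. Kif22 has both elements on the opposite strand, where they read ATTGG and TTCAAA. In Prc1 the CHR spans the start. The first block of capitals in Mcm6 is an overlap of TTTGGCGC with TTTCGCGC on the opposite strand, and the E2F letters of Rrm1 are GGCGGGAA on the opposite strand. CHR letters were in 13 of 18 mitotic promoters (72.2%), in 3 of 17 S-phase promoters (17.6%) and in 17.9% of all 32851 promoter windows. E2F letters were in 7 of 17 S-phase promoters (41.2%), in 1 of 18 mitotic promoters (5.56%, Cdk1) and in 2.96% of all windows. CCAAT was in 15 mitotic (83.3%) and 9 S-phase promoters (52.9%), against 37.4% of all windows. A match is only a match of letters, and no binding was measured here.

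Allergen came with more transcript of mitotic genes, and of fewer S-phase genes, in DCs of normal and of at-risk pups. In normal pups of Set 1 the signal rose in 24 of 43 genes, 17 of 23 mitotic and 7 of 20 S-phase genes, and in at-risk pups in 23 of 43 genes, 19 mitotic and 4 S-phase genes. None was called lower by limma in either comparison, and of the 81 probe sets 77 and 76 had a positive difference. OVA and alum were given together, so their effects cannot be told apart. Over all genes with 1 probe set each, 5.45% were called higher in normal pups and 4.98% in at-risk pups. The median change of the mitotic genes was a log2 of 0.52 (1.43-fold) in normal and 0.48 (1.4-fold) in at-risk pups. For the S-phase genes it was 0.28 (1.22-fold) and 0.27 (1.21-fold), against medians of 0 and -0.01 over all genes. Without AF79 the genes called in normal pups were 17 mitotic and 6 S-phase genes, with medians of 0.40 and 0.23. Counted as probe sets, 40 of 81 were called higher in normal pups, where 5.73% of all probe sets were, and 36 of 81 in at-risk pups, where 4.42% were.

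**Figure D1:**
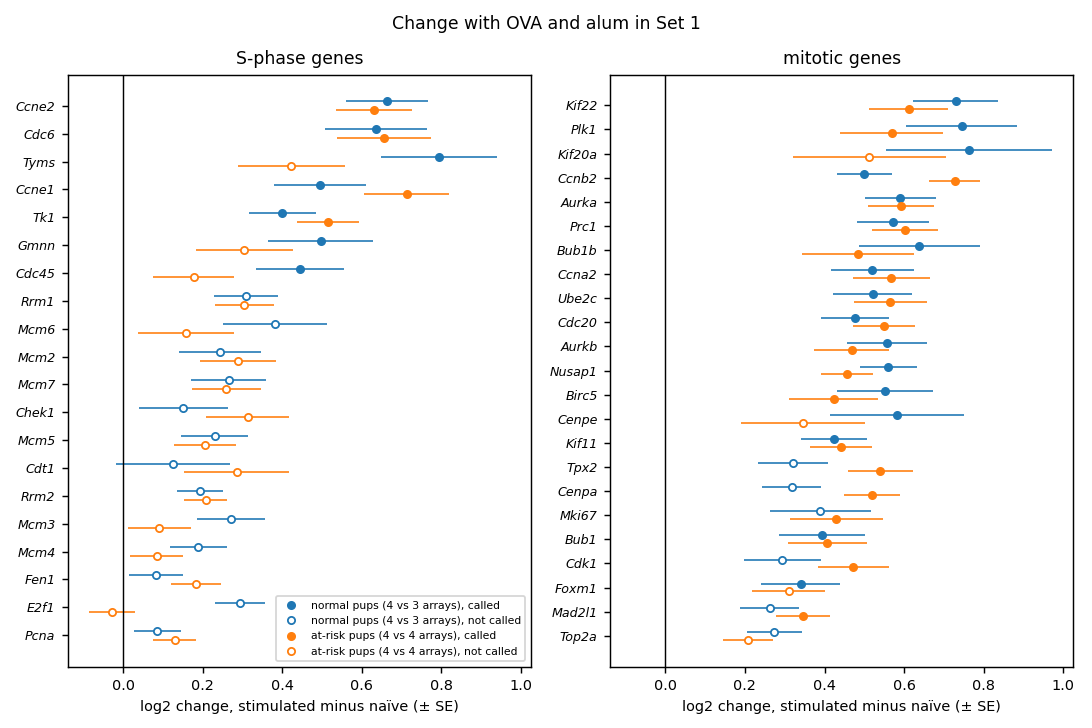
Log2 change with OVA and alum in Set 1 (x axis, stimulated minus naïve, with the standard error of limma as bars) for the S-phase genes (left) and mitotic genes (right), in normal pups (blue, 4 against 3 arrays) and at-risk pups (orange, 4 against 4). Filled points were called; 19 of 23 mitotic and 4 of 20 S-phase genes are filled in at-risk pups, and the lowest point, E2f1 in at-risk pups, lies at -0.03.

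The groups hardly overlapped. In normal pups every stimulated array lay above every naïve array in 38 of 43 genes, against 12.0% of all genes, and the 5 exceptions were Cdt1, Chek1, Fen1, Pcna and Foxm1. The same held for 34 of 43 genes in at-risk pups, against 9.87% of all genes, and here 8 of the 9 exceptions were S-phase genes, with Cenpe as the only mitotic one. The mean log2 signal over the 23 mitotic genes was 10.02, 10.14 and 10.33 on the naïve normal arrays and 10.6 to 10.7 on the stimulated normal arrays. It was 10.12 to 10.36 on the naïve and 10.68 to 10.81 on the stimulated at-risk arrays. Over the 20 S-phase genes the naïve arrays lay between 10.32 and 10.59 and the stimulated arrays of Set 1 between 10.68 and 10.85.

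Transcripts of other blood cells moved with allergen on the same arrays. Of 14 measured erythroid markers 12 were called higher in normal and 12 in at-risk pups, and of 10 platelet markers 9 and 10. The mean log2 signal of the erythroid markers was 8.3 to 8.61 on the naïve and 9.45 to 10.22 on the stimulated arrays of Set 1, and that of the platelet markers was 5.95 to 6.25 and 9.14 to 10.18. Klf1, an erythroid transcription factor, lay at 7.57 to 8.53 on the naïve and at 9.63 to 10.73 on the stimulated arrays of Set 1, while the probe set of Hba-a1, a globin gene, stayed at 4.04 to 4.64, under the lower quartile, on all 24 arrays. Progenitor and neutrophil precursor markers were called higher in 3 of 9 genes in normal pups, with 1 lower, and in 7 of 9 in at-risk pups. All 8 T cell markers were called lower in normal pups and 7 of 8 in at-risk pups, as were 5 of 6 NK cell markers in both. Macrophage markers were called lower in 5 of 9 genes in normal and 4 of 9 in at-risk pups. Of 7 neutrophil markers 6 were called lower in normal and 0 in at-risk pups. Pre-B cell markers were called higher in 2 of 5 genes in both. Other lists moved less. Of 12 conventional DC markers 2 were called higher in normal and 0 in at-risk pups, with 0 lower, and of 8 B cell markers 0 were called. Plasmacytoid DC markers were called lower in 1 of 5 genes in both, and plasma cell markers in 2 and 1 of 5. Of 9 endothelium and stroma markers 0 and 2 were called higher and 1 lower in both. Over all genes 6.33% were called lower in normal and 3.4% in at-risk pups. The part of these transcripts in the cell cycle result was not tested. In such bulk RNA, a change in the number of cycling cells and a change in RNA per cell cannot be told apart.

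**Figure D2:**
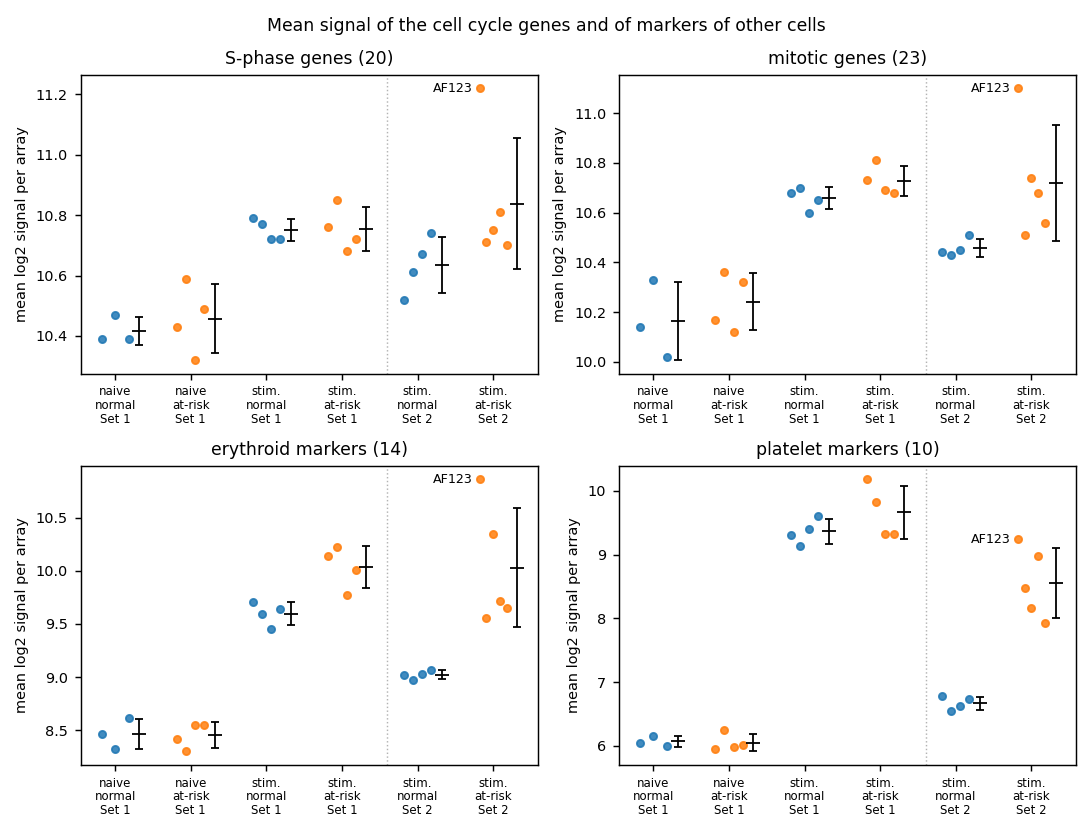
Mean log2 signal per array (y axis) over the 20 S-phase genes, the 23 mitotic genes, 14 erythroid and 10 platelet markers in the 6 groups, with group means and SD as bars and the sets parted by a dotted line. All 4 means are higher on the stimulated than on the naïve arrays of Set 1, and AF123 is the highest stimulated at-risk array of Set 2 in each panel.

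Among the S-phase genes, the cyclins E, which open S phase with Cdk2, changed in both kinds of pups. Ccne2 measured 8.4, 8.04 and 8.26 on the naïve normal arrays and 9.13, 8.85, 8.8 and 8.79 on the stimulated normal arrays. In at-risk pups it measured 8.34, 8.31, 8.22 and 8.02 in naïve and 8.82, 8.85, 8.82 and 8.93 in stimulated DCs. Its rises were 0.66 (SE 0.10, adjusted p = 0.000507 from limma) and 0.63 (SE 0.10, adjusted p = 0.000446), and every stimulated array was above every naïve one. Ccne1 measured 9.2, 9.37 and 9.55 against 10.04, 9.89, 9.73 and 9.82 in normal pups, and 9.2, 9.55, 9.1 and 9.34 against 10.04, 10.17, 9.85 and 9.98 in at-risk pups. It rose by 0.49 (SE 0.12, adjusted p = 0.00974) and by 0.71 (SE 0.11, adjusted p = 0.000426), again with no overlap.

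Of the factors that license and fire replication origins, Cdc6 was called in both comparisons. Cdc6, which loads the MCM helicase, measured 9.19, 9.33 and 9.8 on the naïve and 10.11, 10.12, 10.01 and 10.05 on the stimulated normal arrays. Its values were 9.34, 9.6, 9.19 and 9.38 on the naïve and 9.98, 10.22, 9.88 and 10.06 on the stimulated at-risk arrays. The rises were 0.63 (SE 0.13, adjusted p = 0.00358) and 0.66 (SE 0.12, adjusted p = 0.00192), and in normal pups the stimulated arrays lay closer together than the naïve ones. Cdc45, which joins the helicase when an origin fires, measured 9.11, 9.34 and 9.08 against 9.51, 9.72, 9.61 and 9.65 in normal pups, a rise of 0.44 (SE 0.11, adjusted p = 0.0144). In at-risk pups the naïve values of 9.42, 9.75, 9.28 and 9.29 overlapped the stimulated 9.51, 9.71, 9.5 and 9.73, with a difference of 0.18 (SE 0.10, adjusted p = 0.372). Gmnn, the inhibitor of Cdt1, rose by 0.50 in normal pups (SE 0.13, adjusted p = 0.0207), a call that was lost without AF79, where Gmnn was at 10.43 against 11.0 and 11.14 on the other naïve normal arrays (0.28 without it), and without AF85. Cdt1 itself differed by 0.13 (SE 0.14, adjusted p = 0.618) in normal and 0.28 (SE 0.13, adjusted p = 0.24) in at-risk pups.

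The helicase subunits were not called by any of their probe sets. Mcm2 measured 10.59, 10.58 and 10.29 against 10.87, 10.66, 10.76 and 10.63 in normal pups, and 10.57, 10.64, 10.38 and 10.63 against 10.89, 11.04, 10.74 and 10.69 in at-risk pups. The differences were 0.24 (SE 0.10, adjusted p = 0.136) and 0.29 (SE 0.10, adjusted p = 0.0792), although every stimulated array lay above the naïve ones it was compared with. Over Mcm2, Mcm3, Mcm4, Mcm5, Mcm6 and Mcm7 the differences ran from 0.19 to 0.38 in normal and from 0.08 to 0.29 in at-risk pups. The 0.38 is that of Mcm6, for which AF79 stood at 11.03 against 11.67 and 11.73 on the other naïve normal arrays, and without AF79 it was 0.16, with 0.14 for Mcm2 and 0.08 for Mcm4. Pcna, the sliding clamp of the polymerases, measured 13.14, 13.18 and 13.14 against 13.33, 13.24, 13.21 and 13.16 in normal pups and 13.11, 13.21, 13.06 and 13.18 against 13.26, 13.33, 13.27 and 13.22 in at-risk pups. Its differences were 0.09 (SE 0.06, adjusted p = 0.38) and 0.13 (SE 0.05, adjusted p = 0.189).

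The enzymes of nucleotide supply varied by probe set. Tk1, thymidine kinase, measured 10.16, 10.31 and 10.27 against 10.52, 10.74, 10.6 and 10.73 in normal pups and 10.13, 10.3, 10.1 and 10.25 against 10.76, 10.83, 10.52 and 10.73 in at-risk pups. It rose by 0.40 (SE 0.08, adjusted p = 0.0051) and 0.52 (SE 0.08, adjusted p = 0.000461) with its only probe set. Tyms, thymidylate synthase, was dim, at 4.97, 5.61 and 5.31 on the naïve and 5.96, 6.15, 6.14 and 6.11 on the stimulated normal arrays, and rose by 0.79 (SE 0.15, adjusted p = 0.00184). In at-risk pups it measured 5.59, 5.87, 5.29 and 5.73 against 6.23, 6.07, 5.9 and 5.97, with a difference of 0.42 (SE 0.13, adjusted p = 0.0661). These values lie not far above the lower quartile, which limits how well a change can be measured. Rrm2, the regulated subunit of ribonucleotide reductase, differed by 0.19 and 0.21 on its brightest probe set, under the fold threshold, while its other probe sets rose by 0.85 and 0.41 in normal and by 0.70 and 0.47 in at-risk pups. The rise of 0.85 was 0.51 without AF79, which stood at 8.92 against 9.94 and 9.9 on the other naïve normal arrays. For Rrm1, the large subunit, the brightest probe set gave 0.31 and 0.30, also under the threshold, and the other one rose by 0.81 in normal pups (SE 0.21, adjusted p = 0.0203) with 0.39 in at-risk pups (SE 0.20, adjusted p = 0.292). On that probe set AF79 stood at 7.89, against 9.01 and 9.14 on the other naïve normal arrays, and the rise was 0.41 without it.

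Among the mitotic genes, Ccnb2, the measured B cyclin, had the smallest adjusted p of any member. It measured 10.4, 10.57 and 10.54 on the naïve normal and 11.07, 10.97, 11.02 and 10.95 on the stimulated normal arrays. On the at-risk arrays it measured 10.37, 10.51, 10.3 and 10.45 in naïve and 11.11, 11.24, 11.05 and 11.15 in stimulated DCs. The groups were far apart, and the rises were 0.50 (SE 0.07, adjusted p = 0.000218) and 0.73 (SE 0.06, adjusted p = 3.58e-06). Ccna2, the A cyclin of S phase and G2, rose by 0.52 and 0.57 (SE 0.10 in both). Their kinase Cdk1 rose by 0.47 in at-risk pups (SE 0.09, adjusted p = 0.00278), and in normal pups the difference was 0.29 (SE 0.10, adjusted p = 0.0562), though without AF79 it was 0.39 and called.

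The Aurora kinases and Plk1 were called in both kinds of pups. Aurka, which matures the spindle poles, measured 9.62, 9.79 and 9.58 against 10.35, 10.25, 10.18 and 10.22 in normal pups and 9.7, 9.88, 9.64 and 9.78 against 10.38, 10.54, 10.27 and 10.18 in at-risk pups. It rose by 0.59 in both (SE 0.09 and 0.08, adjusted p = 0.000393 and 0.000216). Aurkb, the kinase of the chromosomal passenger complex, rose by 0.56 and 0.47, and its partner Birc5 (survivin) by 0.55 and 0.42, with the call of Birc5 in at-risk pups lost without AF80, AF82, AF83, AF88, AF89 or AF91. Plk1, the Polo kinase, rose by 0.74 in normal (SE 0.14, adjusted p = 0.00211) and 0.57 in at-risk pups (SE 0.13, adjusted p = 0.00982). Tpx2, the activator of Aurka, rose by 0.54 in at-risk pups (SE 0.08, adjusted p = 0.000424), and in normal pups its 0.32 (adjusted p = 0.0238) stayed under the fold threshold, with 0.37 and a call without AF79.

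Motors and microtubule binders of the spindle moved alongside. Kif22, a chromosome-bound kinesin, measured 9.9, 10.09 and 9.6 against 10.67, 10.58, 10.59 and 10.53 in normal pups, and 9.95, 10.23, 9.92 and 10.19 against 10.78, 10.73, 10.61 and 10.61 in at-risk pups. It rose by 0.73 (SE 0.11, adjusted p = 0.000298) and 0.61 (SE 0.10, adjusted p = 0.000761). Prc1, which bundles the midzone of the spindle, measured 10.31, 10.46 and 10.46 against 10.83, 11.14, 10.88 and 11.09, and in at-risk pups 10.47, 10.45, 10.36 and 10.37 against 11.08, 11.1, 10.81 and 11.07. For Kif22 and for Prc1 no stimulated array reached down to a naïve one, and Prc1 rose by 0.57 (SE 0.09, adjusted p = 0.000543) and 0.60 (SE 0.08, adjusted p = 0.000199). Nusap1, a spindle-associated protein, measured 10.98, 11.02 and 10.84 against 11.44, 11.55, 11.49 and 11.56 in normal pups and 10.91, 11.08, 11.01 and 11.14 against 11.38, 11.48, 11.57 and 11.53 in at-risk pups. Its rises were 0.56 (SE 0.07, adjusted p = 9.75e-05), the smallest adjusted p among members in normal pups, and 0.46 (SE 0.07, adjusted p = 0.000311). Kif11, the kinesin that pushes the spindle poles apart, rose by 0.42 and 0.44. Kif20a, a kinesin of cytokinesis, rose by 0.76 in normal pups (SE 0.21, adjusted p = 0.0234), where AF79 was at 8.47 against 9.53 and 9.63 on the other naïve arrays and without which the rise was 0.39, a call that was lost without AF87, and had 0.51 in at-risk pups (SE 0.19, adjusted p = 0.128).

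Of the spindle checkpoint and the anaphase-promoting complex, Cdc20, the activator of that complex, was called with all 3 probe sets in normal pups, of which 1 was no longer called without AF79 (0.28, from 0.44) and another went from 0.82 to 0.42. Its brightest probe set measured 9.76, 9.96 and 9.83 against 10.36, 10.28, 10.37 and 10.3 in normal pups and 9.74, 9.85, 9.76 and 9.99 against 10.36, 10.59, 10.36 and 10.24 in at-risk pups. The rises were 0.48 (SE 0.08, adjusted p = 0.00155) and 0.55 (SE 0.08, adjusted p = 0.000279), and the groups did not overlap. Ube2c, the ubiquitin-conjugating enzyme of the complex, rose by 0.52 and 0.57. The checkpoint kinases Bub1 and Bub1b rose by 0.39 and 0.64 in normal and by 0.41 and 0.48 in at-risk pups. For Bub1b in normal pups, AF79 stood at 9.16 against 9.85 and 10.03 on the other naïve arrays, and the rise was 0.38 without it. That call was lost with only the compared groups in the fit, and that of Bub1 without AF79, AF84 or AF86. In at-risk pups the call of Bub1 was lost without AF82, and that of Bub1b without any single array of that comparison other than AF81, and without AF84, AF85, AF86 or AF87. Mad2l1, the checkpoint inhibitor of Cdc20, rose by 0.35 in at-risk pups (SE 0.07, adjusted p = 0.00382), a call that was lost without AF82 or AF88, and had 0.26 in normal pups (SE 0.07, adjusted p = 0.0277), under the fold threshold.

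At the kinetochore, Cenpa, the histone H3 variant of centromeres, measured 10.06, 10.09, 10.07 and 10.17 on the naïve and 10.63, 10.65, 10.54 and 10.65 on the stimulated at-risk arrays. It rose by 0.52 there (SE 0.07, adjusted p = 0.000149). In normal pups it measured 9.98, 10.16 and 10.3 against 10.48, 10.56, 10.37 and 10.44, with a difference of 0.32 (SE 0.07, adjusted p = 0.0102) just short of the fold, and with 0.40 and a call without AF79. Cenpe, the kinetochore kinesin, rose by 0.58 in normal pups (SE 0.17, adjusted p = 0.0309) and had 0.35 in at-risk pups (SE 0.16, adjusted p = 0.222). For Cenpe AF79 stood at 8.02 against 8.66 and 8.82 on the other naïve normal arrays, and without it the change was 0.34 and not called, nor was it called without AF84, AF85 or AF87. Foxm1, the transcription factor of the G2 programme, rose by 0.34 in normal pups (SE 0.10, adjusted p = 0.0324), and in at-risk pups its 0.31 (adjusted p = 0.0455) was under the fold threshold. The call of Foxm1 in normal pups was lost without AF79, where it had 0.25, and without AF76, AF84, AF85 or AF86.

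Mki67 and Top2a, in wide use as markers of proliferating cells, were called in 1 comparison and in none. Mki67, the Ki-67 antigen, measured 12.14, 12.16 and 11.56 against 12.52, 12.35, 12.25 and 12.25 in normal pups and 12.05, 12.06, 11.97 and 12.18 against 12.61, 12.58, 12.43 and 12.36 in at-risk pups. It rose by 0.43 in at-risk pups (SE 0.12, adjusted p = 0.0294), a call that was lost without AF80, AF81, AF82, AF88 or AF89, while 0.39 in normal pups (SE 0.13, adjusted p = 0.0528) did not pass and was 0.19 without AF79. Top2a, the topoisomerase that untangles sister chromatids, measured 11.58, 11.67 and 11.49 against 11.92, 11.9, 11.77 and 11.83, and 11.63, 11.74, 11.56 and 11.73 against 11.87, 11.95, 11.88 and 11.8. Its differences of 0.27 (SE 0.07, adjusted p = 0.0143) and 0.21 (SE 0.06, adjusted p = 0.0523) were under the fold threshold although the groups did not overlap.

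**Figure D3:**
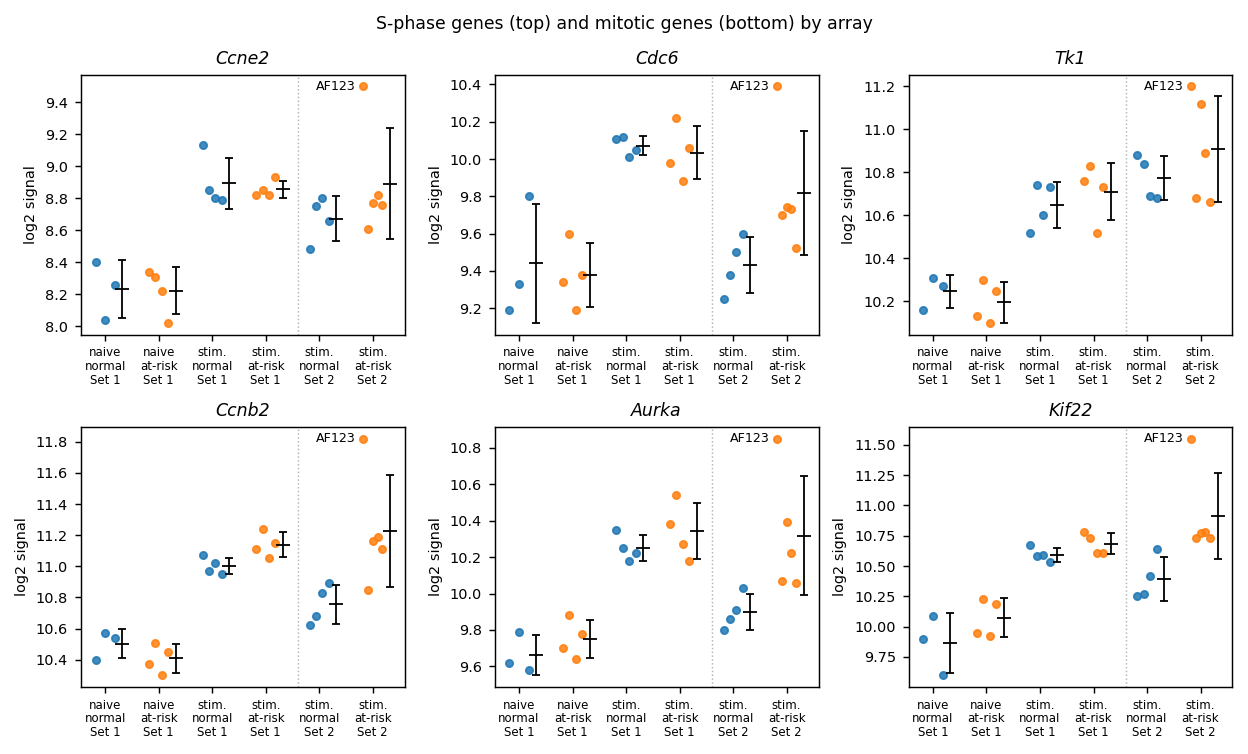
Log2 signal per array (y axis) of 3 S-phase genes (top) and 3 mitotic genes (bottom) in the 6 groups, with group means and SD as bars and the sets parted by a dotted line. On the Set 1 side every stimulated point is above every naïve point of its kind of pup, and AF123 is the top point of Set 2 in all 6 panels, at 11.82 for Ccnb2.

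Calls in normal and at-risk pups were compared as lists, which share no array but share 1 estimate of spread. In both, 18 genes were called, 75% of those in normal and 78.3% of those in at-risk pups, and 42 of 43 genes had a positive difference in both. All 4 S-phase genes called in at-risk pups (Ccne1, Ccne2, Cdc6 and Tk1) were among the 7 called in normal pups, and 14 mitotic genes were called in both. By brightest probe sets, Cdc45, Gmnn, Tyms, Cenpe, Foxm1 and Kif20a were called only in normal pups. Those called only in at-risk pups were Cdk1, Cenpa, Mad2l1, Mki67 and Tpx2. Without AF79, Gmnn, Cenpe and Foxm1 were not called in normal pups, and Cdk1, Cenpa and Tpx2 were. Bub1, one of the 18 genes called in both, was not called in normal pups without AF79 either. Other probe sets crossed these lists, as 1 of Tpx2 was called in normal pups and 1 each of Foxm1 and Tyms in at-risk pups. The difference between normal and at-risk pups was tested as the interaction of maternal status and allergen. In it 0 of 81 probe sets were called by limma, against 0.0486% of all probe sets. Its unadjusted p was under 0.05 for 2 of the 81 and for 1903 of all 22626. The lowest adjusted p was that of E2f1, the factor that opens the S-phase programme, at 0.241. E2f1 measured 9.26, 9.32 and 9.23 against 9.47, 9.6, 9.53 and 9.66 in normal pups, but 9.4, 9.47, 9.33 and 9.49 against 9.42, 9.35, 9.43 and 9.37 in at-risk pups, an interaction of -0.32 (SE 0.08).

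Where a gene had several probe sets, they did not always give the same call. Of these 23 genes, all probe sets were called in 5, some in 9 and none in 9 in normal pups, and in at-risk pups these were 5, 8 and 10. Counting a gene by any of its probe sets raised the number called to 28 in normal and 27 in at-risk pups.

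Other mitotic genes were also called higher in large part, and other replication genes in small part. Of 36 other mitotic genes 21 were called higher in normal and 26 in at-risk pups and none lower, with medians of 0.44 and 0.49. Among them Ccnf, an F-box cyclin, rose by 0.74 in normal pups (SE 0.10), Cdc25b, a phosphatase that activates Cdk1, by 0.68 (SE 0.10), Anln, the anillin of the cleavage furrow, by 0.60 (SE 0.09) and Sgo1, the guardian of centromeric cohesion, by 0.53 (SE 0.08). In at-risk pups Sgo1 rose by 0.66 (SE 0.07), Anln by 0.79 (SE 0.09), Cdc25c by 0.78 (SE 0.09) and Ect2, an exchange factor for RhoA in cytokinesis, by 0.56 (SE 0.06). Of 25 other replication genes only 4 were called in normal and 5 in at-risk pups, all higher, with medians of 0.24 and 0.23. Orc1, a subunit of the origin recognition complex, rose by 0.64 and 0.63, Blm, a helicase, by 0.54 and 0.90, and Cdca7 by 0.44 and 0.45. Orc6 rose by 0.37 in normal pups, and Gins1, part of the active helicase, by 0.42 in at-risk pups.

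Regulators of G1 moved in both directions. Of 26 genes 3 were called higher and 3 lower in normal pups, and 5 higher and 1 lower in at-risk pups, with a median of 0.03 in both. The shares called lower over all genes were 6.33% and 3.4%. E2f8, a repressor of the E2F family, rose by 0.55 (SE 0.09) and 0.57 (SE 0.08), and Cdk2, the partner of cyclin E, by 0.35 and 0.33 (SE 0.09 and 0.08). Cdkn1a, the p21 inhibitor of cyclin-dependent kinases, fell by 0.83 in normal pups (SE 0.14, adjusted p = 0.00124), and Cdkn2b, the p15 inhibitor, fell by 0.72 (SE 0.17, adjusted p = 0.00971). Cdkn2c, an inhibitor of Cdk4 and Cdk6, went the other way and rose by 0.57 (SE 0.14, adjusted p = 0.0137). Ccnd2, a D cyclin, fell by 0.50 in normal (SE 0.12) and by 0.51 in at-risk pups (SE 0.11). E2f4 and Mybl2 rose in at-risk pups by 0.35 (SE 0.08) and 0.57 (SE 0.14), and the interaction called 0 of the 26 genes. Of 17 histone genes 3 were measured, and H1f2, a linker histone, fell by 0.63 (SE 0.10) and 0.39 (SE 0.09).

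Maternal asthma without allergen made no called difference. In naïve DCs of at-risk against normal pups 0 of 81 probe sets were called by limma, against 0.34% of all probe sets. An unadjusted p under 0.05 was found for 9 of the 81 and for 3578 of all 22626 probe sets. The median difference was 0.04 over S-phase and 0.08 over mitotic genes. The smallest adjusted p of a member was 0.158, on a probe set of E2f1 other than its brightest (0.40, SE 0.12), and the largest differences of genes were 0.35 for Kif20a (SE 0.21, adjusted p = 0.427) and 0.32 for Tyms (SE 0.15, adjusted p = 0.299). AF79 was the lowest normal array for Kif20a and AF76 for Tyms. With the naïve normal arrays so few and so spread (median SD 0.16 over the mitotic genes), a small difference would not be called.

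Among stimulated DCs the at-risk values were mostly the higher ones, but by less than the test asks. Over both sets, with set as a term, 0 of 81 probe sets were called, against 1.73% of all probe sets. At an unadjusted p under 0.05 from limma there were 24 of the 81 and 3840 of all 22626 probe sets. All 23 mitotic genes and 16 of 20 S-phase genes had a positive difference, with medians of 0.16 and 0.10 on the log2 scale. The smallest adjusted p of a member was 0.0703, on a probe set of Cdc20 other than its brightest (0.23, SE 0.07), and by brightest probe sets it was that of Tpx2, 0.0845, at 0.30 (SE 0.09), followed by Ccne1 with 0.36 (SE 0.11, adjusted p = 0.0932). Mki67 differed by 0.30 (SE 0.10, adjusted p = 0.11) and Pcna by 0.07 (SE 0.05, adjusted p = 0.428). Without AF123 the median over the 81 probe sets went from 0.11 to 0.06.

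The sets were also looked at apart. Within Set 1, 0 of 81 probe sets were called, against 0.0707% of all probe sets. There 6 of the 81 had an unadjusted p under 0.05 from limma, as had 1655 of all 22626. The medians there were 0 for S-phase and 0.09 for mitotic genes. Within Set 2 they were 0.18 and 0.24, and 1 probe set, of Tyms, was called, where 4.62% of all probe sets were. Of the 81 in this set, 22 had an unadjusted p under 0.05, as had 4961 of all 22626. Tyms measured 5.85, 6.01, 5.91 and 5.9 on the normal and 6.41, 6.24, 6.32, 6.22 and 6.09 on the at-risk arrays of Set 2. That made a rise of 0.34 (SE 0.07, adjusted p = 0.0287 from limma), without overlap but close to the dim end of the array, and in Set 1 the order was not kept, with 5.96, 6.15, 6.14 and 6.11 on the normal and 6.23, 6.07, 5.9 and 5.97 on the at-risk arrays. The call of Tyms was lost under 14 of 18 alternatives, and when 1 array was left out it was kept only without AF127. The interaction of maternal status and set called 0 of 81 probe sets and 1.79% of all probe sets. Its unadjusted p was under 0.05 for 10 of the 81 and for 3693 of all 22626.

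Among stimulated DCs of Set 1, every at-risk array was above every normal array in 0 of 43 genes and below in 2. Over all 12393 genes these counts were 362 and 381. In naïve DCs they were 1 and 1 of 43 genes, and 581 and 719 of all genes. In Set 2 every at-risk array was above every normal array in 10 of 43 genes, Ccne1, Fen1 and Tyms of the S-phase and Aurka, Cdc20, Cdk1, Kif20a, Kif22, Plk1 and Tpx2 of the mitotic genes, against 7.08% of all genes. Kif22 measured 10.25, 10.27, 10.42 and 10.64 on the normal arrays and 11.55, 10.73, 10.77, 10.78 and 10.73 on the at-risk arrays, with a difference of 0.52 (SE 0.17, adjusted p = 0.125). AF123 gave the first of these at-risk values, and the other 4 lie close together. For Ccne1 the values were 9.53, 9.47, 9.4 and 9.62 against 10.65, 9.79, 10.16, 9.9 and 9.8, a difference of 0.56 (SE 0.16, adjusted p = 0.0897). Mki67 measured 11.89, 11.93, 12.14 and 12.32 against 13.03, 12.25, 12.44, 12.44 and 12.4, where AF123 was the highest and AF124 lay under 1 normal array. Mcm2 measured 10.49, 10.51, 10.55 and 10.66 against 11.1, 10.61, 10.74, 10.66 and 10.52, Pcna 12.92, 12.99, 13.1 and 13.12 against 13.31, 13.13, 13.13, 13.05 and 13.09, and Top2a 11.66, 11.61, 11.61 and 11.61 against 11.94, 11.57, 11.76, 11.66 and 11.63. In these 3 genes the groups overlapped, and AF123 was the highest array of Set 2. Without AF123 the median over the 81 probe sets fell from 0.18 to 0.10, Tyms was no longer called, and Ccne1 (0.41, SE 0.09, adjusted p = 0.0408) and 1 other probe set of Kif22 (0.36, SE 0.08, adjusted p = 0.0443) were. These were named after their values were seen.

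Markers of other cells also differed within Set 2. AF123 was the highest of its group in the erythroid, platelet, progenitor and neutrophil precursor, neutrophil and pre-B cell markers. It was the lowest in those of T cells, NK cells, macrophages, plasma cells, conventional DCs and plasmacytoid DCs. Its mean log2 signal was 11.22 over the S-phase and 11.1 over the mitotic genes, 10.86 over the erythroid and 9.24 over the platelet markers. On the other at-risk arrays of Set 2 the erythroid mean was 9.56 to 10.35, and on the normal arrays 8.97 to 9.07. For the platelet markers these were 7.93 to 8.98 and 6.55 to 6.78. The T cell mean was 8.58 on AF123, 8.59 to 8.96 on the other at-risk and 9.29 to 9.32 on the normal arrays, and the NK cell mean was 9.38, 9.42 to 9.75 and 10.31 to 10.35. Within Set 2, 5 of 14 erythroid, 9 of 10 platelet, 4 of 8 B cell and 6 of 9 endothelium and stroma markers were called higher in at-risk pups. Called lower there were 5 of 8 T cell, 5 of 6 NK cell, 3 of 9 macrophage, 3 of 5 plasmacytoid DC, 1 of 12 conventional DC and 1 of 7 neutrophil markers. Over both sets 10 of 14 erythroid and 8 of 10 platelet markers were called higher, with 3 of 9 endothelium and stroma markers, 2 of 9 progenitor and neutrophil precursor markers, 2 of 8 B cell markers, and 1 marker each of neutrophils and pre-B cells, and 1 marker each of T cells, NK cells and plasmacytoid DCs was called lower. The part of these transcripts in the cell cycle values was not tested.

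**Figure D4:**
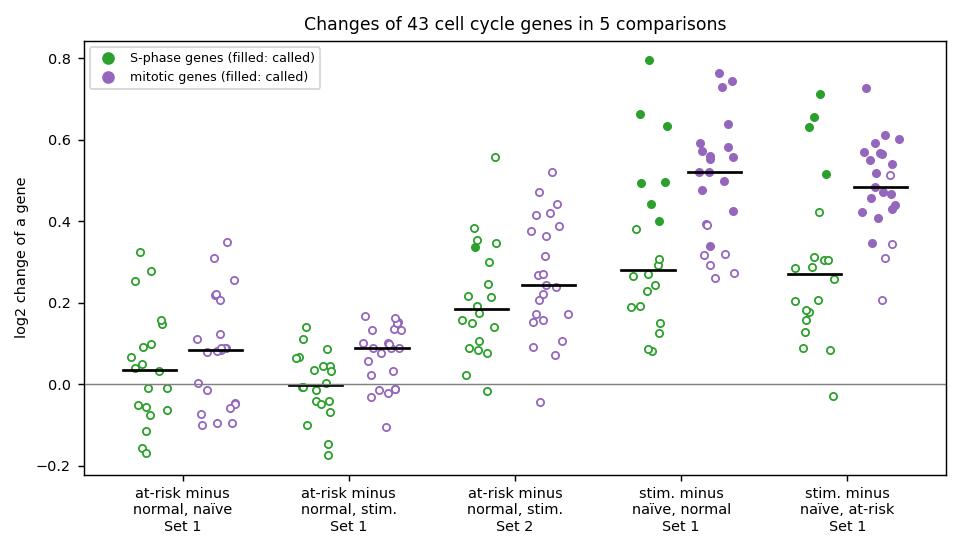
Log2 change of each of the 43 genes (y axis) in 5 comparisons (x axis), S-phase genes in green and mitotic genes in purple, with the median as a bar and called genes filled. The medians of the allergen comparisons (0.28 and 0.52, 0.27 and 0.48) lie above those of the maternal comparisons, where Tyms in Set 2 is the only filled point.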

How the data were processed

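RNA of CD11c+ splenic DCs was hybridised to 24 Affymetrix mouse arrays in 6 groups of 3 to 5. The authors made the deposited intensity values with RMA, on a linear scale, and 1 array per set had been excluded by them. The study's methods describe separate preprocessing of the sets by quantile normalization and median polish for its own analysis. Whether the deposited values were made in the same way was not checked. No version of RMA is named in the sources used here. No column of the deposited table was without a sample (0 such columns). The methods name a RefSeq-based probe set definition, while the table holds Affymetrix's own probe sets. Here, log2 was taken with no pseudocount, and 64 control probe sets were left out. Symbols came from the platform annotation: 20380 probe sets had 1 symbol, 691 several and 1555 none.

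Linear models in limma 3.58.1 (lmFit and eBayes, under R 4.3.3) took in all 22626 probe sets, over the 15 arrays of Set 1 with a mean for each group, over the 17 stimulated arrays with set as a term, or over the 9 arrays of Set 2, and each fit was tested on simulated data. Python 3.11.15 served for tables and figures, with pandas 2.3.3, numpy 2.4.6 and matplotlib 3.10.9. Genes with values per array were Mki67, Top2a, Mcm2, Pcna and up to 6 called S-phase and 6 called mitotic genes of smallest adjusted p per comparison, and any other gene given so was chosen after its values were seen. From other lists, up to 4 called genes per direction were named. The members and lists were chosen with earlier results of these data known. Alternatives were other arrays in the fit, 2 normalizations, a filter of dim probe sets, a pseudocount of 32, other thresholds and variance models, array weights, the brightest probe set of each gene alone, and leaving out each array in turn. Precision is limited by the number of arrays.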

Additional observations from a re-analysis of the deposited data

Results flagged for a closer look

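In groups of 4 or 5 arrays, 225 were examined for an array far from the others (a gap over the group's range above Dixon's critical value), and 22 were found, where chance alone gives about 1 in 20 groups. Of these 12 were values of AF123, the highest stimulated at-risk array of Set 2. Its log2 signals were 9.5 for Ccne2, 10.39 for Cdc6, 13.07 for Fen1, 11.84 for Mcm5, 12.9 for Mcm7, 11.68 for Rrm1, 12.02 for Ccna2, 11.16 for Cdc20, 11.76 for Cdk1, 11.55 for Kif22 and 13.03 for Mki67, and its mean over the S-phase genes was 11.22 against 10.7 to 10.81 on the other arrays of the group.

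Among the stimulated normal arrays of Set 1, AF84 was high in Ccne2 (9.13) and Fen1 (12.81), and AF85 in Mcm4 (12.02) and Ccna2 (11.54). In stimulated normal DCs of Set 2, AF121 was high in Ccna2 (11.16), and AF118 was high in Top2a (11.66) and low in Nusap1 (11.27). AF81, a naïve at-risk array, was high in Birc5 (12.33). AF90, a stimulated at-risk array of Set 1, was low in Prc1 (10.81), and AF125, which shares its group with AF123, was high in Ube2c (12.01, against 11.23 to 11.38 on the other arrays of its group).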

How the results depend on the processing

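The rise after allergen depended mostly on how the fold was tested. Testing the fold threshold itself with limma's treat left 1 of 40 member probe sets in normal and 3 of 36 in at-risk pups. With only the compared groups in the fit the count in normal pups was 24, and with 1 probe set per gene the counts were 25 and 23 of 43 genes. Leaving out each array gave 38 to 49 calls in normal and 27 to 40 in at-risk pups. Without an array, 5 genes lost their calls in normal pups (Gmnn, Foxm1, Bub1, Cenpe and Kif20a), 4 of them without AF79, and 5 in at-risk pups (Bub1b, Mad2l1, Bub1, Birc5 and Mki67). Under every alternative other than treat, 17 of 24 and 18 of 23 called genes kept their calls, and in none did the direction turn.

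In Set 2 the maternal count of 1 was 9 with all 24 arrays in 1 fit and 14 with array weights, and Tyms was among neither. It was 0 with quantile normalization, with a pseudocount of 32, with treat and with trend and robust. It was also 0 without dim probe sets, a filter that took out the Tyms probe set itself. Leaving out each array gave 0 to 2 calls, 2 without AF123. The interaction of maternal status and set called 4 probe sets with array weights (3 of Foxm1 and 1 of Kif22) and 0 to 1 without an array, the 1 being Tyms without AF88. Naïve and pooled stimulated maternal counts, that of Set 1 and the interaction with allergen stayed at 0 under every alternative run. The cause was not tested. No paired analysis was possible because the arrays share no replicate numbers.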

Other observations

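Within Set 2, some mitotic and replication transcripts were ordered over the arrays in another way than the rest. AF123 was the highest at-risk array of Set 2 for all genes but Ube2c and Cenpa. Ube2c, the ubiquitin-conjugating enzyme of the anaphase-promoting complex, measured 11.89, 11.63, 11.29 and 11.19 on the normal arrays and 11.38, 11.29, 12.01, 11.36 and 11.23 on the at-risk arrays. Cenpa, the centromeric histone, measured 10.4, 10.09, 9.98 and 9.74 on the normal and 10.35, 10.12, 10.54, 10.19 and 9.83 on the at-risk arrays. A probe set of Rrm2, a subunit of ribonucleotide reductase, measured 11.98, 11.94, 11.4 and 11.37 on the normal and 11.6, 11.36, 12.17, 11.58 and 11.38 on the at-risk arrays, while the brightest probe set of the same gene measured 12.09, 12.24, 12.24 and 12.28, and 12.55, 12.08, 12.21, 12.34 and 12.27. In these 3 transcripts AF118 and AF125 were high in their groups, and AF121 was the lowest normal array.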
